A study of Mus musculus with 6 samples.

Results

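The cell cycle genes described here are the Cdkn1 inhibitors (Cdkn1a, Cdkn1b and Cdkn1c), the Gadd45 genes (Gadd45a, Gadd45b and Gadd45g), the D-type cyclins (Ccnd1, Ccnd2 and Ccnd3) and Mdm2. They were chosen by name, as 3 gene families and a regulator of p53, and were found in the data by Entrez gene ID. All 10 were among the 13363 genes with a measured level. The samples were gastrocnemius muscles, a calf muscle rich in fast fibers, from 3 mice with C26 tumors and 3 Control mice. The C26 line, from a mouse colon adenocarcinoma, makes its host waste as it grows. All mice were male Balb/c animals, bought at 6 weeks of age. The C26 mice had received C26 cells under the skin of the right flank, and the Control mice were not inoculated. The tumor comes from 1 cell line, and no other tumor was sequenced. Levels are FPKM, fragment counts scaled by the length of the transcript and by the size of the library, which allow genes to be compared with each other.

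A cell passes from G1 into DNA synthesis when D-type cyclins, bound to Cdk4 or Cdk6, start the phosphorylation of the retinoblastoma protein. Cdkn1a (p21), Cdkn1b (p27) and Cdkn1c (p57) bind cyclin and kinase complexes and hold them inactive, while the Gadd45 proteins respond to stress, bind Map3k4 upstream of p38 and JNK, and interact with p21. p53 drives transcription of Cdkn1a, Gadd45a and Mdm2, and Mdm2 marks p53 for degradation. Myofibers are post-mitotic, and Cdkn1a and Gadd45a are known to rise in muscle that is denervated or immobilized.

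Of the 10 genes, 5 rose in C26 muscle, 4 fell and 1 did not pass the test. Cdkn1a rose the most, from a mean of 6.65 to 118 FPKM, followed by Gadd45a, while all 3 D-type cyclins and Cdkn1c fell. A gene was called when its adjusted p was under 0.05 in limma, with Benjamini-Hochberg adjustment over all 13363 genes. Over all genes, 19.4% were called higher, 14.5% lower and 33.8% in either direction. A fold change above 4 as well was reached by Cdkn1a and Gadd45a among the genes that rose and by Ccnd2 among those that fell, against 1.76% of all genes higher and 1.73% lower. The groups did not overlap in FPKM for 4 of the genes that rose and for all 4 that fell, against 18.7% of all genes higher without overlap and 34.6% lower (53.3% in either direction). The median log2 fold change was 0.48 over the 10 genes and -0.05 over all genes. With FPKM used as deposited, the split of calls over all genes turned from 2589 higher and 1932 lower to 1678 higher and 2504 lower. Among the 10 genes that setting gave 4 higher and 4 lower.

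**Figure D1:**
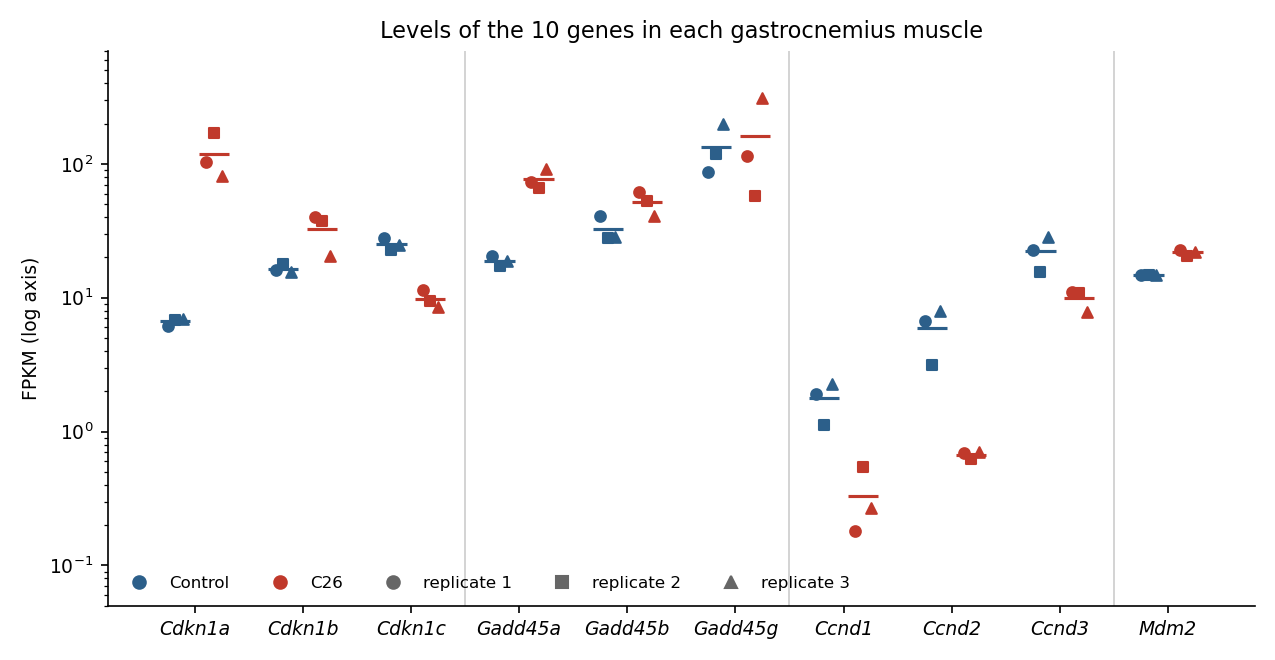
FPKM of the 10 genes (log axis) in each Control (blue) and C26 (red) gastrocnemius muscle, with marker shapes for the replicates and a bar at each group mean. The C26 muscles lie apart from and above the Control muscles for Cdkn1a, Cdkn1b, Gadd45a and Mdm2 and apart from and below them for Cdkn1c, Ccnd1, Ccnd2 and Ccnd3, while the groups overlap for Gadd45b and Gadd45g.

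Skeletal muscle fiber genes were abundant in every muscle, with Acta1 between 10781 and 27269 FPKM and Ckm between 14314 and 26160 FPKM, as fits the labelled tissue. Lists of fibroblast, adipocyte and Schwann cell markers were lower in C26 muscle without overlap (differences in mean log2 level of -1.76, -3.72 and -0.76), and erythroid markers were higher (1.25). Mean log2 levels of the myofiber, satellite cell, endothelial and macrophage lists overlapped (-0.49, -0.16, -0.19 and 0.23). The summed myofiber markers did not, at 56100 to 84300 FPKM in C26 muscle against 124000 to 131000 FPKM in Control muscle, and 2 of the 8, Mylpf and Pvalb, were called lower. Single markers varied widely among the C26 muscles, with the macrophage gene Cd68 at 34.85, 246.65 and 6.46 FPKM (1.75 to 5.77 FPKM in Control muscle, not called) and Myh1 at 298.97, 254.27 and 2555.40 FPKM. Control replicate 3 stood apart, with 40.1 FPKM of Ptprc, the pan-leukocyte gene CD45, against at most 0.81 in the other muscles, and with 1.57 FPKM of the proliferation gene Mki67 against at most 0.09. In bulk muscle, fewer cells of a type and less RNA per cell cannot be told apart.

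Upstream sequence is shown for the genes of the p53 circuit, because, of the windows found for the 10 genes, only theirs held a match of the p53 half-site, the short motif of which the p53 binding site has a pair. RefSeq promoter sequence of GRCm38.p6 was matched by symbol for 7 of the 10 genes (Cdkn1a, Cdkn1b, Gadd45a, Gadd45b, Gadd45g, Ccnd3 and Mdm2), in 9 windows of 250 bases before a transcript start. The Cdkn1a stretch, chr17:29090729-29090975 on the plus strand, ends at the base before the annotated gene. The Mdm2 stretch, chr10:117710759-117711008 on the minus strand, also ends just before its gene. The Gadd45a stretch, chr6:67037428-67037457 on the minus strand, is the 30 bases around its match. They are printed 5′ to 3′ with the half-site matches in capitals.
Cdkn1a: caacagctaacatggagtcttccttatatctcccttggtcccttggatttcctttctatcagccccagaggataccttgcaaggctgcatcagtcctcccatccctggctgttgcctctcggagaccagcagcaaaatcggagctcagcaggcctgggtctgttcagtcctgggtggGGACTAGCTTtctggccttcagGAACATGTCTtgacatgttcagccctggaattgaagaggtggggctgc
Gadd45a: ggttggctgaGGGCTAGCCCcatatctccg
Mdm2: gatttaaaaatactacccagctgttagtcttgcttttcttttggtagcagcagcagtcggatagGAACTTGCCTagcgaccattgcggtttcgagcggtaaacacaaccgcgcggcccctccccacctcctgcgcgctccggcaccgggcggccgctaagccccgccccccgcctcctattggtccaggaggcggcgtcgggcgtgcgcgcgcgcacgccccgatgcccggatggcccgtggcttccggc

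The window of the Cdkn1a stretch held 2 matches, at 73 to 64 and at 51 to 42 bases before its RefSeq start. The other Cdkn1a window, chr17:29093519-29093768, held no half-site match. The window of Gadd45a held 1 match, at 40 to 31 bases, which lies inside the first exon of the longer GENCODE gene model. That of Mdm2 held 1 match, at 186 to 177 bases. A half-site on either strand was present in 7.13% of 32851 windows of this length. The 3 other motifs searched on both strands were the FoxO element GTAAACA (in the Mdm2 window and 1 Ccnd3 window, and in 3.17% of all windows), the myogenic E-box CAGCTG (Mdm2 and Gadd45g, 13%) and the TATA box TATAAA (Gadd45b and Gadd45g, 12.4%). None of these matches overlapped another. A match describes the letters of the window and is not a measured binding site.

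Cdkn1a, which encodes p21 and is at chr17:29090976-29100727 on the plus strand of GRCm38, had the largest change of the 10 genes. Its level was 6.15, 6.87 and 6.92 FPKM in the Control muscles and 103.65, 168.79 and 81.67 FPKM in the C26 muscles. The lowest C26 muscle lay far above the highest Control muscle. The C26 muscles also differed among themselves, with replicate 2 the highest and replicate 3 the lowest. Cd68 had the same order, but the other macrophage markers on its list were all higher in replicate 1 than in replicate 2. The part of other cells in this spread was not tested. The mean rose from 6.65 ± 0.431 to 118 ± 45.3 FPKM (SD, n = 3 per group). On the scale of log2(TMM-scaled TPM + 1) used for all fold changes, the difference was 4.17 with a standard error of 0.25 and a 95% confidence interval from 3.57 to 4.77. This 18-fold rise had an adjusted p of 0.000822 in limma (Benjamini-Hochberg) and was the 16th largest rise of the 13363 genes. It stayed between 3.90 and 4.45 in the 7 alternative scalings and models and whichever muscle was left out, with a call each time. AC167363.2 overlaps 7.68% of its exonic bases on the opposite strand.

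Cdkn1b, which encodes p27 and is at chr6:134920401-134925513 on the plus strand, was at 16.18, 17.75 and 15.63 FPKM in the Control muscles. In the C26 muscles it was at 40.38, 37.32 and 20.37 FPKM. All C26 muscles were higher, although replicate 3 was close to the Control range. Cdkn1b rose by 1.11 on the log2 scale (SE 0.26, 95% interval 0.49 to 1.73) with an adjusted p of 0.0202 in limma. The call was lost with quantile normalization (0.76, adjusted p = 0.0512), without C26 replicate 1 (log2 fold change 0.94, adjusted p = 0.0734), without C26 replicate 2 (1.02, 0.069) and without Control replicate 1 (1.08, 0.0733).

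Cdkn1c encodes p57, an imprinted inhibitor that is expressed from the maternal allele, and is at chr7:143458339-143461050 on the minus strand. It moved the other way. The Control muscles had 27.79, 22.54 and 24.83 FPKM and the C26 muscles 11.50, 9.38 and 8.52 FPKM, so every C26 muscle was lower. The mean fell from 25.1 ± 2.63 to 9.80 ± 1.53 FPKM, which is -1.10 on the log2 scale (SE 0.15, 95% interval -1.46 to -0.74, adjusted p = 0.00538 in limma). This call held in every alternative and with each muscle left out. An antisense gene, Gm44732, overlaps 30.7% of the exonic bases of Cdkn1c, and whether reads were counted by strand is not given in the sources used here, so reads of overlapping genes on opposite strands may not have been told apart.

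The makeup of the Cdkn1 family differed between the groups. Cdkn1c supplied 51.9% ± 3.85 of the summed Cdkn1 FPKM in Control muscle and 6.48% ± 1.85 in C26 muscle (SD, n = 3 per group). Cdkn1a went from 13.8% ± 1.34 to 72.9% ± 5.90. The summed level rose from 48.2 ± 1.65 to 161 ± 52.6 FPKM. Within single muscles, the ratio of Cdkn1a to Cdkn1b was 0.38, 0.387 and 0.443 in the Control group and 2.57, 4.52 and 4.01 in the C26 group. The log2 ratios did not overlap and differed by 3.16, with a two-sided exact permutation p of 0.1, the smallest that 3 against 3 samples can give (adjusted p = 0.125 over 5 ratios). Such a ratio does not depend on how a sample was scaled.

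**Figure D2:**
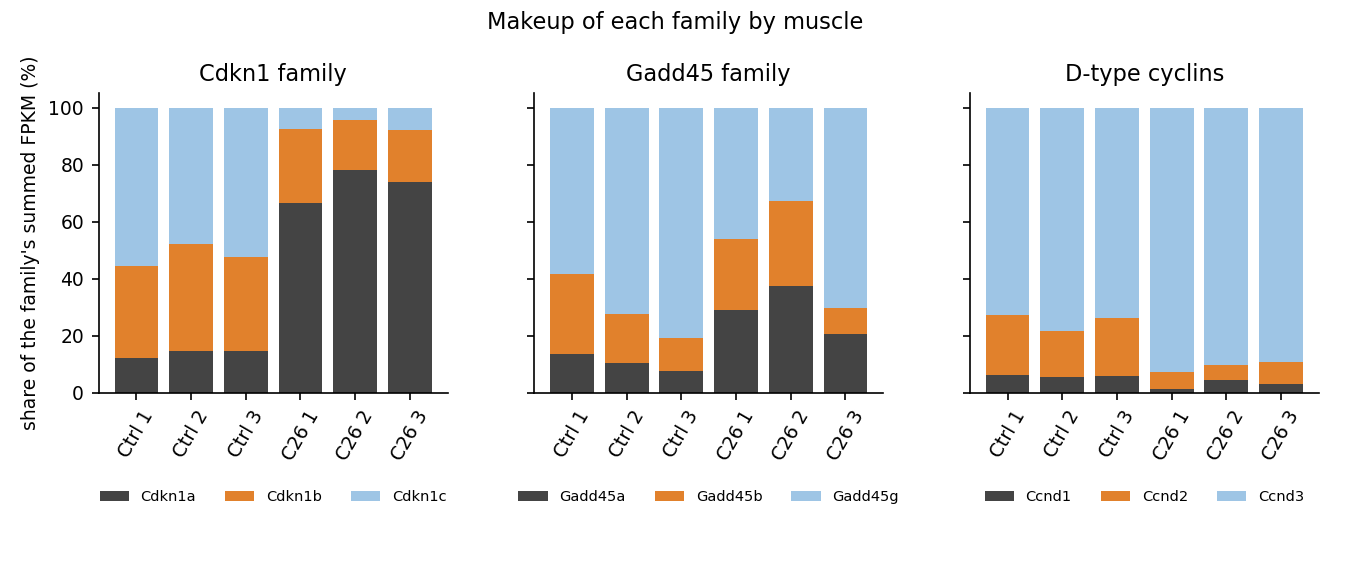
Share of each gene in the summed FPKM of its family (percent, stacked from 0 to 100) in the 6 muscles, with Ctrl for Control. Cdkn1a takes 66.6% to 78.3% of the Cdkn1 sum in C26 muscles against 12.3% to 14.6% in Control muscles, and Ccnd3 takes 89.0% to 92.7% of the D-type cyclin sum against 72.6% to 78.4%.

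The 3 Gadd45 genes did not move alike. Gadd45a, a stress and DNA damage inducible gene at chr6:67035096-67037457 on the minus strand, had 20.48, 17.31 and 18.75 FPKM in the Control muscles and 72.83, 66.19 and 91.19 FPKM in the C26 muscles. The groups lay far apart, and the highest C26 muscle was replicate 3, the one with the least Cdkn1a. The mean rose from 18.8 ± 1.59 to 76.7 ± 12.9 FPKM, or by 2.19 on the log2 scale (SE 0.19, 95% interval 1.75 to 2.64, adjusted p = 0.00187 in limma), the 169th largest rise. It was called in every alternative and with each muscle left out, but the fold was below 4 with FPKM as deposited (log2 fold change 1.96) and with quantile normalization (1.81). E230016M11Rik overlaps 19.1% of its exonic bases on the opposite strand.

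Gadd45b, which is induced by transforming growth factor and inflammatory signals, is at chr10:80930073-80932204 on the plus strand. Its level was 41.11, 27.75 and 28.48 FPKM in the Control muscles and 61.52, 52.70 and 40.77 FPKM in the C26 muscles. C26 replicate 3 was just below Control replicate 1, so the groups overlapped. The log2 fold change of 0.88 (SE 0.21, 95% interval 0.38 to 1.38) had an adjusted p of 0.0216 in limma. The call was lost with FPKM as deposited (0.66, adjusted p = 0.0653) and with quantile normalization (0.47, 0.12). It was also lost without C26 replicate 1 (0.75, 0.0808), C26 replicate 2 (0.89, 0.0638) or Control replicate 2 (0.85, 0.0611).

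Gadd45g, at chr13:51846678-51848468 on the plus strand, had the highest mean level of the 10 genes in both groups and was the one without a call. The Control muscles had 86.36, 118.35 and 198.05 FPKM and the C26 muscles 114.66, 57.12 and 312.60 FPKM. C26 muscles were both the lowest and the highest of all 6, and in C26 replicate 2 Gadd45g was below Cdkn1a and Gadd45a. The log2 fold change of 0.22 had a 95% interval from -1.34 to 1.79 (SE 0.65, adjusted p = 0.808 in limma), and the interval holds changes of over 2-fold in both directions. Without C26 replicate 3 it was -0.38.

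Gadd45a supplied 29.1% ± 8.55 of the summed Gadd45 FPKM in C26 muscle against 10.7% ± 3.10 in Control muscle (SD, n = 3 per group). Gadd45g supplied 49.6% ± 19.2 and 70.5% ± 11.3, with overlap. The ratio of Gadd45a to Gadd45b was below 1 in every Control muscle (0.498, 0.624 and 0.658) and above 1 in every C26 muscle (1.18, 1.26 and 2.24). The log2 ratios differed by 1.34 (exact permutation p = 0.1, adjusted p = 0.125).

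All 3 D-type cyclins fell, from very different starting levels. Ccnd2, at chr6:127125162-127152193 on the minus strand, fell the most. Its level was 6.66, 3.15 and 7.90 FPKM in the Control muscles and 0.69, 0.62 and 0.70 FPKM in the C26 muscles. The C26 muscles were nearly equal, and even the lowest Control muscle was well above them. The log2 fold change was -2.11 (SE 0.26, 95% interval -2.75 to -1.48, adjusted p = 0.00434 in limma), the 236th largest fall. It was called in every setting, but its fold was below 4 with FPKM as deposited (-1.98), with quantile normalization (-1.91) and without Control replicate 3 (-1.92), and it was -2.72 with 0.1 added in place of 1.

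Ccnd1, at chr7:144929931-144939925 on the minus strand, was the least abundant of the 10 genes. It had 1.92, 1.12 and 2.28 FPKM in the Control muscles and 0.18, 0.54 and 0.27 FPKM in the C26 muscles, without overlap. The log2 fold change of -1.22 (SE 0.22, 95% interval -1.74 to -0.70, adjusted p = 0.00973 in limma) depended on the added constant at this level and was -2.09 with 0.1 added in place of 1. LTO1 overlaps 23.4% of the exonic bases of Ccnd1 on the opposite strand, and its own log2 fold change was -0.75 (adjusted p = 0.0662 in limma).

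Ccnd3, the D-type cyclin that is retained in differentiated muscle, is at chr17:47505051-47599691 on the plus strand. The Control muscles had 22.71, 15.47 and 28.27 FPKM and the C26 muscles 11.05, 10.84 and 7.87 FPKM. The groups did not overlap, but the Control muscles were widely spread. The log2 fold change was -0.88 (SE 0.20, 95% interval -1.37 to -0.39, adjusted p = 0.02 in limma). The call was lost without any 1 of C26 replicate 1 (-0.95, adjusted p = 0.0566), C26 replicate 2 (-0.92, 0.056), C26 replicate 3 (-0.69, 0.06) and Control replicate 1 (-0.86, 0.0729). Bysl, which overlaps 4.11% of its exonic bases on the opposite strand, rose (0.74, adjusted p = 0.0325).

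The 3 cyclins together summed to 29.8 ± 9.44 FPKM in Control muscle and 10.9 ± 1.80 FPKM in C26 muscle (SD, n = 3 per group). Ccnd3 was the main D-type cyclin in both, with 74.8% ± 3.11 and 90.7% ± 1.86 of the sum, and the share of Ccnd2 was 19.3% ± 2.89 and 6.29% ± 1.44. The log2 ratio of Ccnd2 to Ccnd3 was lower in C26 muscle by a difference of -1.91 without overlap (exact permutation p = 0.1, adjusted p = 0.125). That of Ccnd1 to Ccnd2 overlapped (difference 0.52, exact permutation p = 0.6). Both ratios depended on the added constant. With 1 FPKM added, the difference was -0.92 for Ccnd2 to Ccnd3 and 0.93 for Ccnd1 to Ccnd2 (exact permutation p = 0.1 for each). All 3 cyclins were highest in Control replicate 3, the muscle with the high Ptprc and Mki67. Without that muscle the log2 fold changes were -1.10 for Ccnd1, -1.92 for Ccnd2 and -0.73 for Ccnd3, with adjusted p of 0.0215, 0.00925 and 0.0382 in limma. The fibroblast, adipocyte and Schwann cell marker lists were lower in the same C26 muscles as the cyclins and Cdkn1c. The erythroid list was higher, and the satellite cell, endothelial and macrophage lists overlapped. The 7 fibroblast markers summed to between 165 and 221 FPKM in C26 muscle and between 367 and 498 FPKM in Control muscle, and 4 of them were called lower. The 6 adipocyte markers summed to between 249 and 360 FPKM against 476 to 3540 FPKM, with 5 called lower and the lowest Control sum in replicate 3. Their part in the falls was not tested.

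Mdm2, the ubiquitin ligase that targets p53, is at chr10:117688875-117710758 on the minus strand and showed the tightest values of the 10 genes. The Control muscles had 14.77, 14.89 and 14.81 FPKM and the C26 muscles 22.84, 20.57 and 21.98 FPKM. The groups were clearly apart although the change was small. Mdm2 rose by 0.75 on the log2 scale (SE 0.14, 95% interval 0.41 to 1.08, adjusted p = 0.0115 in limma). The call was lost with quantile normalization (0.44, adjusted p = 0.0617), without C26 replicate 1 (0.72, 0.0533) and without Control replicate 1 (0.72, 0.0523). Cdkn1a rose far more than Mdm2 in the same muscles. The ratio of Cdkn1a to Mdm2 was between 0.416 and 0.467 in the Control group and between 3.72 and 8.21 in the C26 group, a log2 difference of 3.53 (exact permutation p = 0.1, adjusted p = 0.125).

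**Figure D3:**
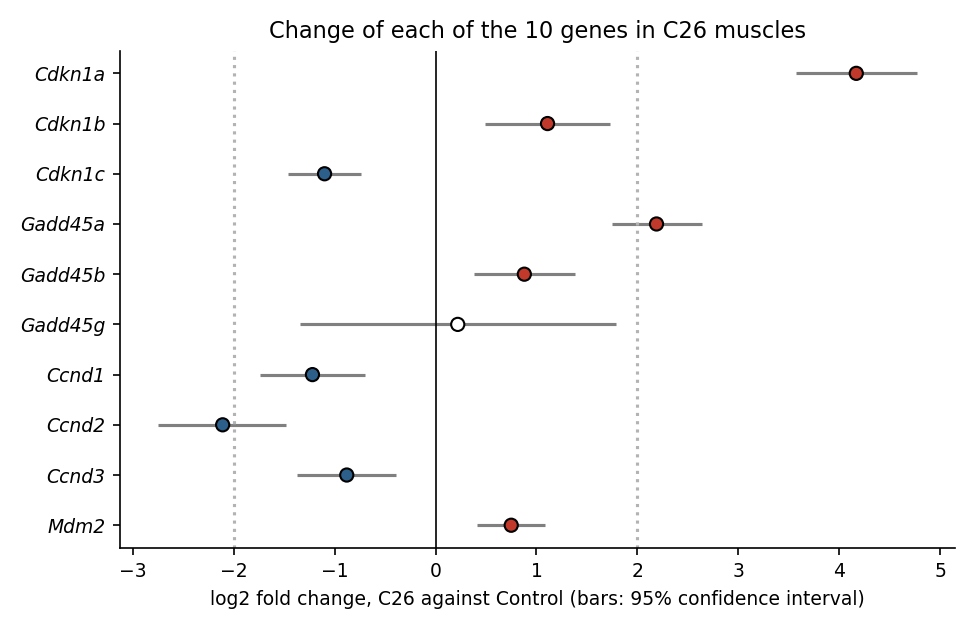
Log2 fold change of each gene, C26 against Control, on the scale of log2(TMM-scaled TPM + 1), with 95% confidence intervals as bars. Red points were called higher, blue points lower and the white point was not called, and the dotted lines at -2 and 2 mark a 4-fold change. The Cdkn1a interval lies wholly beyond the 4-fold line, and that of Gadd45g spans 0.

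The order of the levels changed between the groups. In Control muscle, Gadd45g was highest and separate from the rest. Gadd45b, Cdkn1c, Ccnd3, Gadd45a and Cdkn1b followed, each overlapping its neighbour, and then Mdm2, Cdkn1a, Ccnd2 and Ccnd1, of which Cdkn1a and Ccnd2 overlapped. In C26 muscle, Cdkn1a moved from place 8 to place 2 and overlapped both Gadd45g above it and Gadd45a below it. Gadd45b, Cdkn1b, Mdm2, Ccnd3, Cdkn1c, Ccnd2 and Ccnd1 followed, and among these Cdkn1b and Mdm2 overlapped, as did Ccnd3 and Cdkn1c.

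The wider cell cycle and p53 genes were taken from 7 lists. Of their 94 genes 80 were listed, and 18 were higher, 14 lower and 48 not called, with a median log2 fold change of -0.08. The shares called were close to those over all genes. Of the 32 called, 15 kept their call with each muscle left out in turn. C26 replicate 1, C26 replicate 2 and Control replicate 1 were the muscles without which the counts fell most, to 9, 10 and 9 higher and to 6, 8 and 7 lower. The counts over all genes also fell most without these muscles. They went from 2589 to 1127, 1528 and 1151 higher and from 1932 to 669, 946 and 726 lower.

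Among the other CDK inhibitors, Cdkn2b (p15) fell by 1.18 on the log2 scale (adjusted p = 0.0153 in limma) and Cdkn2c (p18) by 1.40 (0.0368). Cdkn2c was at 4.31, 6.67 and 2.11 FPKM in C26 muscle against 19.31, 12.45 and 9.53 FPKM in Control muscle. Both calls were lost in some fits with 1 muscle left out (adjusted p up to 0.0594 and 0.117), that of Cdkn2b also with quantile normalization (0.0741) and that of Cdkn2c also with TPM without TMM (0.057). With 0.1 added in place of 1, Cdkn2b changed by -2.14. Cdkn2d had a log2 fold change of -0.13 without a call, and Cdkn2a and Cdkn3 were not listed. None of the 3 listed genes rose.

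Of the 14 listed genes of the G1 machinery, 3 rose, 3 fell and 8 were not called. Of the 3 pocket proteins, Rbl2 and Rb1 rose and Rbl1 (p107) fell. Rbl2 (p130), the member that is abundant in resting cells, was at 40.26, 39.77 and 31.42 FPKM in C26 muscle against 10.52, 12.28 and 10.06 FPKM in Control muscle (log2 fold change 1.91, adjusted p = 0.00205 in limma), and Rb1 rose by 1.12 (0.0146). Rbl1 fell by 0.71 (adjusted p = 0.0351), and its call was lost with TPM without TMM, with quantile normalization and without any 1 of 5 muscles (adjusted p up to 0.107). Cdk2, the kinase of S phase entry, was at 0.71, 0.88 and 0.82 FPKM against 3.20, 2.51 and 5.69 FPKM (log2 fold change -1.43, adjusted p = 0.00794). E2f4, a repressor type E2F, rose by 1.09 (0.0281) and the activator E2f1 fell by 0.96 (0.0214), from at most 1.25 FPKM. At this low level the change of E2f1 was -2.78 with 0.1 added in place of 1. Rbl2 and Cdk2 kept their calls with each muscle left out, while Rb1, E2f1 and E2f4 lost theirs without C26 replicate 1, C26 replicate 2 or Control replicate 1, and E2f4 also without Control replicate 2 (adjusted p up to 0.0971). The E2f4 call was lost as well with FPKM as deposited (0.0792) and with quantile normalization (0.0847).

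Of 20 proliferation genes, 13 were listed, with 1 higher, 3 lower and 9 not called. Top2a, Ccnb1, Ccnb2, Cdk1, Aurkb, Bub1 and Birc5 were not listed. Aurka, a mitotic kinase, fell from 9.02, 9.67 and 7.24 FPKM to 0.57, 0.82 and 1.37 FPKM (log2 fold change -2.46, adjusted p = 0.00309 in limma), and this call held with each muscle left out. The replication genes Mcm2 and Tyms also fell (-1.05 and -0.79, adjusted p = 0.0156 and 0.0496 in limma), and Mcm7 rose (1.02, 0.0495). The calls of Tyms and Mcm7 were lost in 5 and 6 of the 7 other scalings and models, and without 5 and 4 of the muscles (adjusted p up to 0.153 and 0.151). That of Mcm2 was lost without C26 replicate 1 or 2 (adjusted p up to 0.0566). Control replicate 3 had the highest Control level of both Mcm2 and Tyms, with 5.75 FPKM of Mcm2 against 2.98 and 2.91 and 6.51 FPKM of Tyms against 4.53 and 2.80. Without it the changes were -0.81 for Mcm2 (adjusted p = 0.0136) and -0.57 for Tyms (0.0856).

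Trp53 itself, at 8.75, 10.68 and 5.76 FPKM in C26 muscle and 12.52, 9.24 and 22.43 FPKM in Control muscle, was not called, and its groups overlapped. Of the 8 p53 regulators 1 rose, the phosphatase gene Ppm1d (1.13, adjusted p = 0.0185 in limma). Its call was lost without C26 replicate 1 or 2 or Control replicate 1 or 2 (adjusted p up to 0.0719) and with FPKM as deposited (0.0533). Of the 23 listed p53 targets 6 rose, 4 fell and 13 were not called, with a median log2 fold change of 0.06. Of these 10 calls 6 held with each muscle left out, and those of Trp53inp1, Plk2, Rrm2b and Ddb2 did not. Without C26 replicate 1, C26 replicate 2 or Control replicate 1, the counts were 4 higher and 2 lower. Sesn1, an inhibitor of mTORC1 signalling, was at 198.35, 246.56 and 116.61 FPKM against 10.92, 10.27 and 14.51 FPKM (log2 fold change 4.07, adjusted p = 0.000887 in limma). The antiproliferative gene Btg2 was at 51.21, 59.53 and 31.97 FPKM against 5.23, 4.44 and 16.29 FPKM (2.77, 0.00772). Trp53inp1 (1.57, 0.0426) and Phlda3 (1.14, 0.00783) also rose, and the polo-like kinase gene Plk2 fell (-1.14, 0.0212). The Trp53inp1 call was lost in 4 of 7 alternatives and without C26 replicate 1 or 2 or Control replicate 1 or 2 (adjusted p up to 0.137), and the Plk2 call without C26 replicate 1 or 2 or Control replicate 1 (up to 0.0715) and with quantile normalization (0.0746). The death genes Bax (28.86, 26.18 and 27.51 FPKM in C26 muscle, 28.04, 26.93 and 50.69 FPKM in Control muscle) and Bbc3 were not called, and Pmaip1 was not listed. The death receptor gene Tnfrsf10b fell (-0.94, adjusted p = 0.00744 in limma), whereas Fas, also a death receptor gene, was not called (0.26, 0.302).

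Of the 10 listed kinases of the p38 and JNK cascades, which Gadd45 proteins can engage through Map3k4, 2 rose and 1 fell. Map2k6, an activator of p38, had 0.76, 1.09 and 2.09 FPKM in C26 muscle against 14.15, 12.35 and 12.72 FPKM in Control muscle (log2 fold change -2.71, adjusted p = 0.00288 in limma). This call held with each muscle left out. Map2k7 and Mapk8 (JNK1) rose a little (0.67 and 0.66, adjusted p = 0.0231 and 0.0207), and both lost the call without C26 replicate 1 or Control replicate 1 (adjusted p up to 0.0844 and 0.08), Map2k7 also without C26 replicate 2 and with quantile normalization (0.31, adjusted p = 0.171). Map3k4 was at 7.48 ± 1.31 FPKM in C26 muscle and 8.0 ± 1.01 FPKM in Control muscle and was not called.

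The 9 listed genes for the turnover of D-type cyclins and inhibitors had the highest median of the 7 lists, 1.01, with 5 higher, 1 lower and 3 not called. Of all genes, 19.4% were called higher and 14.5% lower. The lists were chosen with earlier results of these data known. Fbxo31, the receptor of an SCF ligase that degrades cyclin D1, was at 219.50, 248.85 and 112.02 FPKM in C26 muscle against 28.07, 32.58 and 23.70 FPKM in Control muscle (log2 fold change 2.90, adjusted p = 0.00309 in limma). Ddb1, an adaptor of the Cul4 ligases that target p21, rose by 1.69 (0.00961), Gsk3b, the kinase that marks cyclin D1, by 1.49 (0.00577) and Cul4b by 1.19 (0.0119). Cks1b, the cofactor with which Skp2 degrades p27, was at 0.84, 1.86 and 1.90 FPKM against 7.34, 5.67 and 9.63 FPKM (-1.77, 0.00676). All 5 of these calls held with each muscle left out, whereas that of Cul4a, the remaining gene called higher (1.01), was lost without C26 replicate 1 or 2 or Control replicate 1 (adjusted p up to 0.0612). Ambra1, another receptor for D-type cyclins, and Skp2 were not called.

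**Figure D4:**
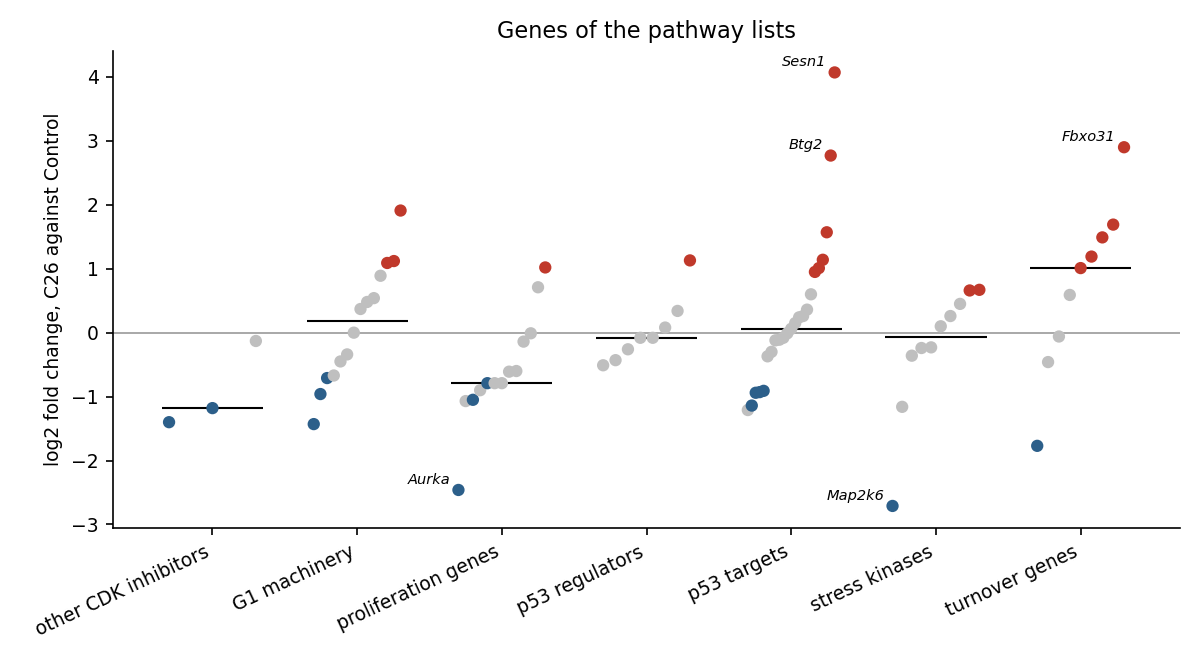
Log2 fold change, C26 against Control, of every listed gene of the 7 lists, with red points called higher, blue points called lower, grey points not called and a black bar at each median. The medians lie between -1.18 and 1.01, and Sesn1, Btg2, Fbxo31, Aurka and Map2k6 are the 5 called genes beyond a 4-fold change.

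The genes with the pattern most like Cdkn1a over the 6 muscles were sought among all listed genes, by the root mean square difference of log2 values centred on each gene's own mean. Sesn1 was nearest, at 0.196, followed by Cnksr1 at 0.289, Fkbp5 at 0.318, Acss1 at 0.348 and Ankrd33b at 0.356. Their log2 fold changes were 4.07, 4.04, 3.62, 4.15 and 3.75, beside 4.17 for Cdkn1a. In all, 24 genes outside the 10 lay within 0.5 of Cdkn1a. For Gadd45a 326 genes did, led by Catsper4 (0.15), Bach1 (0.157) and Foxo3 (0.161), and for Ccnd2 279 genes, led by Tuba1b (0.149), Dap (0.163) and Fam117a (0.166).

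**Figure D5:**
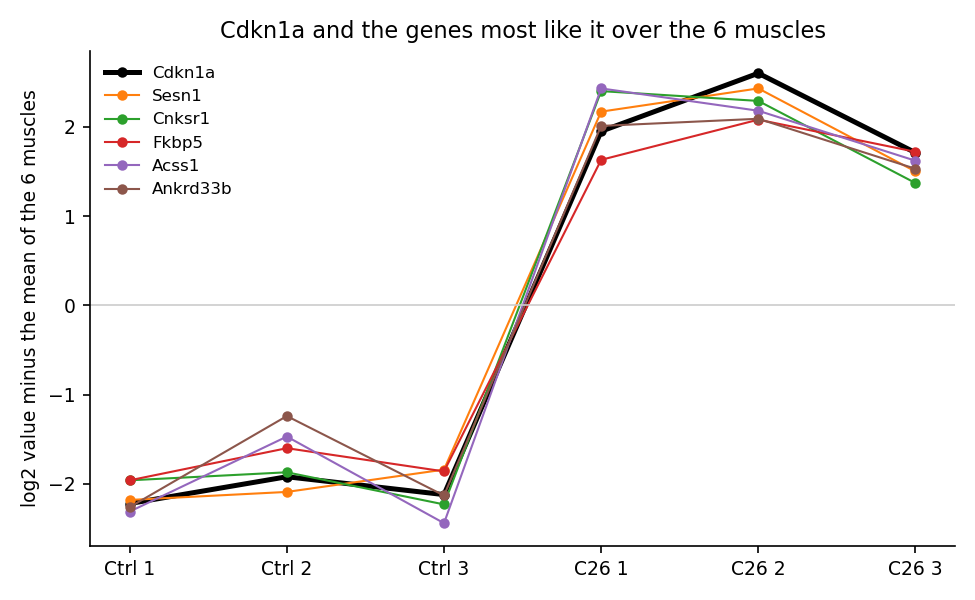
Log2 level minus the gene's mean over the 6 muscles for Cdkn1a (black) and the 5 genes nearest to it, in each Control (Ctrl) and C26 muscle. Lines join the values of a gene and carry no order. Every gene shown lies below 0 in the Control muscles and above 0 in the C26 muscles, and C26 replicate 3 is the lowest C26 muscle for 5 of the 6 genes.

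For the genes that moved less, many more genes had a like pattern, and the nearest tell little. They were Ddx59, Kifbp and Naa20 for Cdkn1b, Col4a5, Rwdd3 and Mfsd7a for Cdkn1c and Mrps35, Cnnm3 and Rragc for Gadd45b. Jarid2, Ccdc34 and Enkd1 were nearest to Ccnd1, Tubg2, Ptn and Rnf144a to Ccnd3, and Prdx1, Cmtr1 and Prcc to Mdm2. Between 2636 genes, for Ccnd1, and 6733 genes, for Mdm2, lay within 0.5 of them.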

How the data were processed

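Gastrocnemius muscles of 3 C26 and 3 Control mice were analysed, with groups taken from the sample labels. The authors removed rRNA with RNaseH, sequenced single-end reads of 50 bases on a BGISEQ-500, aligned them with bowtie2 and estimated expression with RSEM, and the deposited values are FPKM to 2 decimals. The methods name GRCm38.p5, whereas the submitters' processing notes name mm9, HISAT2 2.0.4, Bowtie2 2.2.5 and RSEM 1.2.12. No read counts were analysed here, so the depth of each sample is unknown and the spread between 3 muscles is the measure of precision. Every listed value is above 0 (lowest 0.01), so a gene at 0 in any muscle is not listed. FPKM summed to 531061 to 585169 in C26 and 626992 to 688300 in Control muscles. The limma p-values set each group difference against the spread between these mice, which limma draws towards the spread of all genes.

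FPKM were rescaled to a sum of 1000000 (TPM), divided by TMM factors (0.903 to 1.08, trimming 30% of log ratios and 5% of mean levels) and log2-transformed after adding 1. Groups were compared with limma 3.58.1 in R 4.3.3 and Benjamini-Hochberg adjustment over 13363 genes, two-sided. The fit was tested on simulated data. Ratios within a muscle were compared by exact permutation. Alternatives were quantile normalization, FPKM as deposited, TPM without TMM, a replicate block, an intensity trend, a pseudocount of 0.1, a minimum mean TPM of 1 and leaving out each muscle. Positions are from GENCODE vM21 (GRCm38), and promoter sequences from RefSeq GRCm38.p6. Symbols were matched for 13327 gene IDs. The text names the 10 genes, up to 5 called genes with the largest changes in each list, and for each called gene the 3 genes nearest in pattern (5 for Cdkn1a). Bax, Bbc3, Trp53, Map3k4, Cdkn2d, Ambra1, Skp2, Rbl1, Tnfrsf10b, Fas, Rrm2b, Ddb2, Cul4a, Cd68 and Myh1 were named after their values were seen. The genes and lists were chosen with earlier results of these data known. Tables were made with Python 3.11.15, pandas 2.3.3, numpy 2.4.6 and scipy 1.17.1, and figures with matplotlib 3.10.9.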

Additional observations from a re-analysis of the deposited data

How the results depend on the processing

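Cdkn1a, Cdkn1c, Gadd45a, Ccnd1 and Ccnd2 kept their direction and call in all 7 alternatives and with each muscle left out. Quantile normalization gave log2 fold changes without a call for Cdkn1b (0.76), Gadd45b (0.47) and Mdm2 (0.44), left 2 of the 10 genes higher (2242 of all genes higher and 1574 lower) and turned Gadd45g to -0.21. With FPKM as deposited Gadd45b was not called (0.66). Under both of these settings 1 gene rose over 4-fold. With 1 muscle left out, the log2 fold changes ranged from 0.94 to 1.46 for Cdkn1b, from 0.75 to 1.08 for Gadd45b, from -0.38 to 0.83 for Gadd45g (-0.38 without C26 replicate 3 and -0.07 without Control replicate 1), from -1.04 to -0.69 for Ccnd3 and from 0.70 to 0.82 for Mdm2. From 2 to 5 of the 10 genes were then higher, and of the list genes 9 to 21 were higher and 6 to 13 lower. Over all genes, 1127 to 3311 were then higher and 669 to 2160 lower. With a pseudocount of 0.1, the marker difference was 1.66 for the erythroid list and -4.65 for the adipocyte list. It was -1.03 for the Schwann cell list and -0.41 for the satellite cell list. The cause of these changes with the setting was not tested.

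Samples with the same replicate number did not deviate together (correlations of -0.039, -0.084 and -0.112), so the numbers were not taken to pair the mice. With the number as a replicate block, Ccnd3 (-0.88, adjusted p = 0.0605 in limma) was not called, 11 list genes were higher and 10 lower (without E2f4, Ppm1d, Map2k7, Mapk8, Cdkn2b and Rbl1 among others), and over all genes 1839 were higher and 1235 lower. The 3 muscles per group allow no exact permutation p below 0.1, and the fold changes of genes at low levels (Ccnd1, Ccnd2, E2f1 and Cdkn2b) depend on the added constant.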
